A study of Homo sapiens with 10 samples.

Results

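A module of 40 genes of the hypoxia response and of glycolysis was followed through 10 subclones of the glioma line U87MG, an established human cell line. Its members were chosen by gene symbol, with no threshold on their values. They, and the gene lists and pairs below, were chosen with earlier results of these data known. Shares set beside those of all tested genes therefore describe them and are no independent test. The table of expression values held 39 of them among 11880 gene symbols, and PGAM1 was not analysed here. The subclones carry the numbers 1, 2, 3, 5, 6, 8, 9, 10, 11 and 12, and each descends from a single cell of a thinly seeded culture, so each is 1 clone. All were adherent cultures in medium supplemented with serum, the labels name no treatment, genetic change or low oxygen for any of them, and RNA was taken during exponential growth. Each has 1 array and no second culture, and an SD below is the spread over 10 subclones, which may in part be technical.

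Cells sense oxygen through prolyl hydroxylases (EGLN1, EGLN3), which mark the alpha subunit of the hypoxia-inducible factor HIF for destruction while oxygen is present. When oxygen falls, HIF1A protein is spared, pairs with ARNT and binds a short core sequence near genes for glucose uptake, glycolysis, pH control, vessel growth and matrix modification. HIF1A is therefore controlled mainly as a protein, and its mRNA is not a readout of the response. CA9, a carbonic anhydrase at the cell surface, is among the genes most used to read HIF activity in tumours. Several glycolytic steps have more than one isoform, and some of these (ALDOC, ENO2, SLC2A1, PFKFB3) are known as HIF-responsive in many cells, while others are transcribed at high levels in nearly all cells. Many of the latter are HIF targets as well.

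The stretches of 250 bases before the annotated start of 5 members are shown because HIF acts through such regions and because these genes carry the comparisons below. They are CA9, the gene the others are compared with, BNIP3 and SLC2A1, the 2 members with the highest correlation with it, and the aldolase pair ALDOC and ALDOA. The sequences are RefSeq's on GRCh38.p14, written along the gene's strand. CA9 lies on chr9:35673678-35673927 (plus strand), BNIP3 on chr10:131981924-131982173 (minus), SLC2A1 on chr1:42958869-42959118 (minus), ALDOC on chr17:28576896-28577145 (minus) and ALDOA, the first of its annotated starts in the table, on chr16:30064029-30064278 (plus). Capitals mark the HIF core, ACGTG or GCGTG, on either strand.
CA9: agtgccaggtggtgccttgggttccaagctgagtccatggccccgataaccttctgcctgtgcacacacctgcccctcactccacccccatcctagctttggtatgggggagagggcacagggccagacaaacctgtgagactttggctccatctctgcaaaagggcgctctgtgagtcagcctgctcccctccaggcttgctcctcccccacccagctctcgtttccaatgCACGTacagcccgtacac
BNIP3: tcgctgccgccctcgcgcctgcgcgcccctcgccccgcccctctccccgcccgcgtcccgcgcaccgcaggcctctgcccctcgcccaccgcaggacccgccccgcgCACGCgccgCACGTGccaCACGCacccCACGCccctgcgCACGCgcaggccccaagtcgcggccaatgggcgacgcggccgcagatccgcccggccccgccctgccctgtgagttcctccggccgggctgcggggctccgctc
SLC2A1: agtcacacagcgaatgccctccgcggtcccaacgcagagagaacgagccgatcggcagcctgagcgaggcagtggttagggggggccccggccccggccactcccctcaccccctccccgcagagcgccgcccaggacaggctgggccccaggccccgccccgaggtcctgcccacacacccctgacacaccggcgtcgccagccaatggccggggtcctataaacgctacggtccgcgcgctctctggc
ALDOC: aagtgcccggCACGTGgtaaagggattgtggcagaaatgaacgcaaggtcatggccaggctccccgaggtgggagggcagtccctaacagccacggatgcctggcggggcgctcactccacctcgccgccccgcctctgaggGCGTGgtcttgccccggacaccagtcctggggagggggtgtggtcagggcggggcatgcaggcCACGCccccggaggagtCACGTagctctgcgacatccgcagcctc
ALDOA: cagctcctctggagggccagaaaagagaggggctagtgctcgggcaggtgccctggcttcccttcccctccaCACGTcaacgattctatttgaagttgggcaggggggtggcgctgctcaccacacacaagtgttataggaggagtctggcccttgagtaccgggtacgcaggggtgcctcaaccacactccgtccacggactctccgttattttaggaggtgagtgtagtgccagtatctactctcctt

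The core was matched 1 time in the CA9 stretch, starting 18 bases before the start of transcription. BNIP3 held 5 matches and ALDOC 4, each with 1 CACGTG, which reads ACGTG on both strands, was counted once, and is also the sequence of an E-box. ALDOA held 1 match, and SLC2A1 held 0 in these 250 bases, which says only that these letters are not in this window. Of the 35 members counted, 25 (71.4%) had ACGTG in at least 1 of their stretches, compared with 30.1% of 5219 tested genes with an entry. These members had 67 stretches in all, and 46.3% of these held ACGTG, compared with 22.6% over the stretches of tested genes. For the core as marked above, ACGTG or GCGTG, the contrast was smaller. It was held by 91.4% of these members and 66.6% of the tested genes, and by 65.7% and 55.8% of their stretches. EGLN3 and PFKFB4, which did not enter the tests below, are among the 35. Members on 1 chromosome, NDRG1 and BNIP3L among them, were left out of these counts. Genes of that chromosome stayed among the tested genes, so the sides were not filtered alike. A match is a match of letters, and binding was not measured.

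Values are log2 signals. Genes entered the tests when at least 1 array reached the table's median of 5.00, which left 7095 genes and 37 members. EGLN3 (3.25 to 3.55), a hydroxylase, and PFKFB4 (4.13 to 4.87), a regulator of glycolysis, were below it on all arrays and did not enter this fit. Array medians ran from 4.87 in subclone 10 to 5.11 in subclone 9, and upper quartiles were lowest in subclones 10 (6.75) and 11 (7.02). The median tested gene lay 0.29 below its own mean in subclone 10 and 0.11 above it in subclone 9, and member values are to be read against these shifts. No 2 arrays were identical. Of 9 astrocyte and glioma markers, GFAP, S100B, AQP4, SOX2 and OLIG2 were below the table's median on all arrays, while CD44 (9.83 ± 0.27, SD, n = 10) and CHI3L1 (11.81 ± 0.73) were well above it. SLC1A3 (5.42 to 9.35) and NES (5.14 to 7.55) were also above the table's median on all arrays. All 4 endothelial, all 4 leukocyte and all 3 epithelial markers were below it on all arrays, as was 1 of 4 fibroblast markers, THY1. The other 3 reached the table's median on at least 1 array. Of these, 2 were lowest in subclone 9, PDGFRB at 5.77 (highest 7.58) and COL1A1 at 5.98 (highest 8.36). DCN was at 4.71 there in a range of 4.50 to 5.73, so it was below the table's median on some arrays. CHI3L1 was also lowest in subclone 9, at 10.17. The part of these genes in the results below was not tested.

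CA9 itself was lowest in subclone 9, at 7.17, followed by subclones 1, 12, 11 and 10 at 10.21, 10.42, 10.85 and 10.93. Subclones 6, 5, 3, 8 and 2 followed at 11.05, 11.34, 11.53, 11.63 and 11.83. Subclone 9 stood 3.88 log2 units below the median of the other 9, and those 9 spanned 1.62 log2 units. CA12, a second surface carbonic anhydrase, ran from 9.48 in subclone 9 through a median of 10.38 to 11.34 in subclone 5. For 23 of 37 members (62.2%) the lowest value was in subclone 9, compared with 11.6% of all tested genes. Another 4 were lowest in subclone 1 (all tested genes, 7.47%) and 4 in subclone 10 (all tested genes, 31.8%). For 28 members (75.7%) the highest value was in subclone 2, 5 or 8, compared with 25.7% of all tested genes. These were 12 in subclone 8 (all tested genes, 6.72%), 10 in subclone 2 (8.22%) and 6 in subclone 5 (10.7%). Subclone 6 had 4 and subclone 3 had 0. Subclones 2, 5 and 8 were joined because they held the most such members, so their joint share is a description only.

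**Figure D1:**
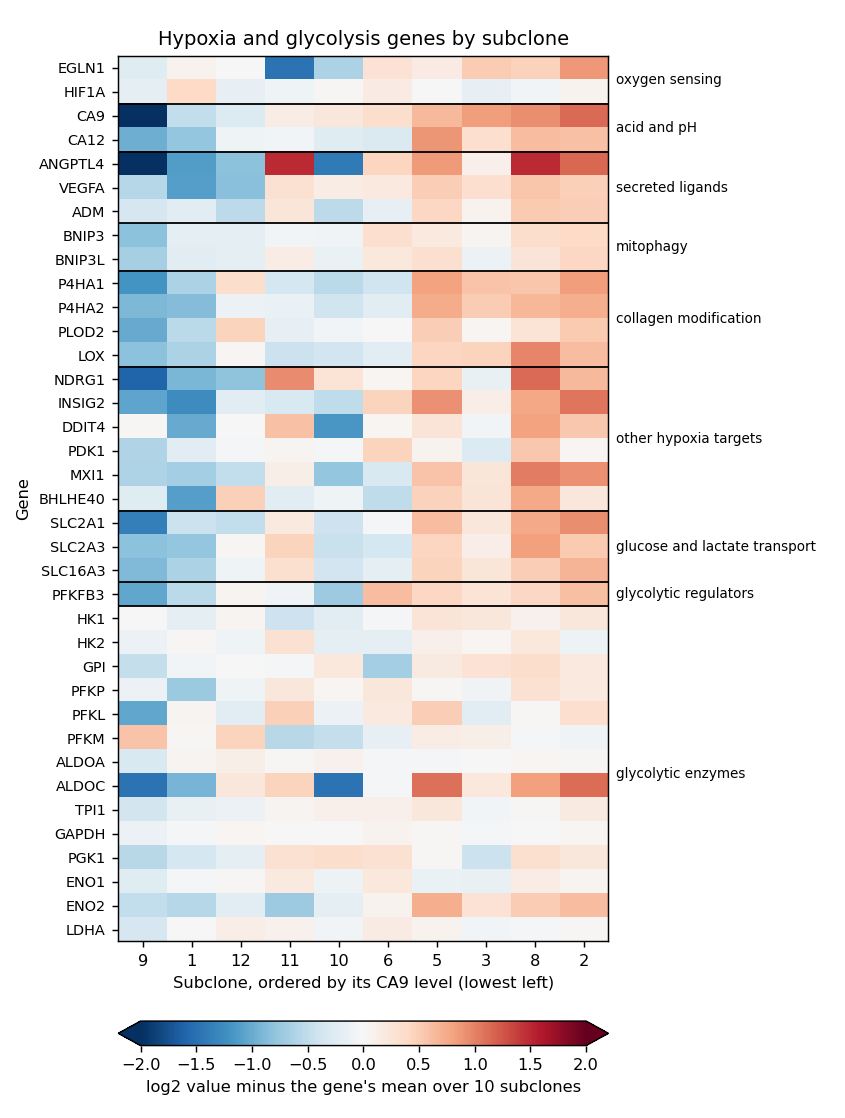
Log2 value minus the gene's mean over 10 subclones (colour) for the 37 tested members (vertical axis, grouped by role) in each subclone (horizontal axis, from lowest to highest CA9). The hypoxia and transport genes are mostly blue in subclones 9 and 1 and red in subclones 5, 8 and 2, while HIF1A and most glycolytic enzymes other than ALDOC and ENO2 are pale; CA9 and ANGPTL4 in subclone 9 lie at or beyond the end of the scale.

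Whether the members shared the order of CA9 was tested by regressing each tested gene on CA9 with limma, 2-sided, with p-values adjusted by the Benjamini-Hochberg method over all 7094 genes other than CA9. Over 10 subclones 7 of 36 members (19.4%) were positively associated with CA9 at an adjusted p under 0.05, compared with 1.45% of all tested genes (3.68% in either direction). These were CA12, NDRG1, BNIP3, BNIP3L, PLOD2, SLC2A1 and TPI1. CA12 had r = 0.78 over 10 subclones (limma's adjusted p = 0.0438) and r = 0.83 without subclone 9 (adjusted p = 0.0507). Subclone 9 weighs heavily in such a fit. Without it 5 members (13.9%) passed, compared with 1.24% of all tested genes, and these were INSIG2, VEGFA, P4HA2, MXI1 and SLC2A1. SLC2A1 alone passed both ways. At an unadjusted p under 0.05 the positive members numbered 25 of 36 over 10 subclones (69.4%; all tested genes, 6.51%) and 22 without subclone 9 (61.1%; all tested genes, 13.8%), with 18 in both. The median r with CA9 was 0.71 for members and -0.08 for all tested genes over 10 subclones, and 0.66 and 0.11 without subclone 9. Permutation p-values below are 2-sided, from 100000 permutations of the subclones. These p-values and limma's treat the subclones as independent of each other. Subclones more alike than the rest, as 2, 3 and 5 may be, would make them too small, and such likeness was not tested. The points share their arrays, so r also carries whatever the arrays share.

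**Figure D2:**
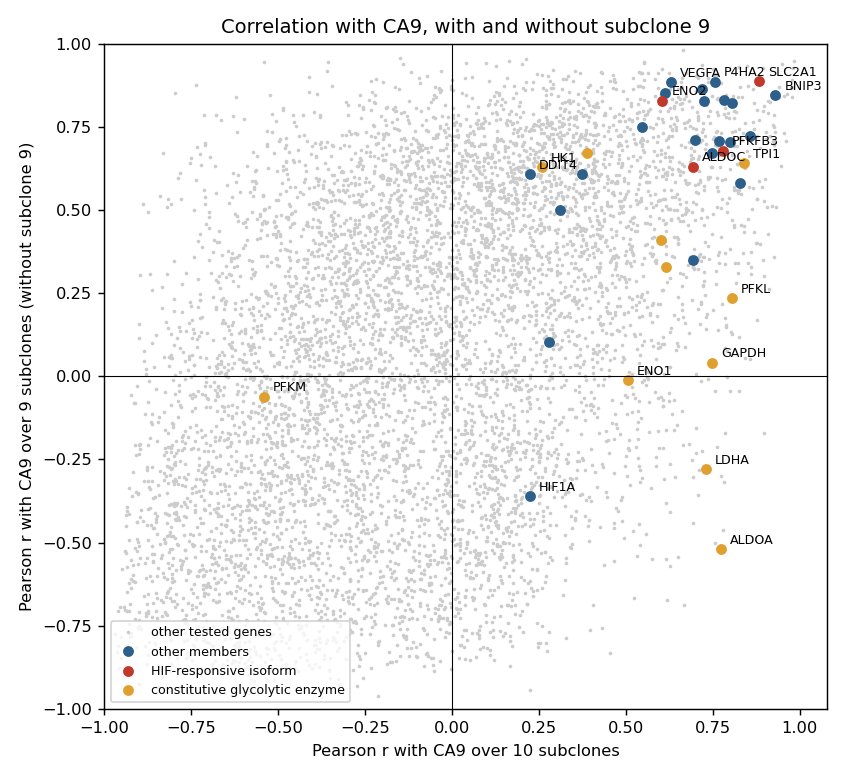
Pearson r with CA9 over 10 subclones (horizontal axis) against r over 9 subclones, without subclone 9 (vertical axis), 1 point per tested gene, with members coloured. SLC2A1, BNIP3, P4HA2 and VEGFA lie high on the vertical axis, while ALDOA, LDHA, GAPDH and ENO1 lie to the right but at or below 0.04 on the vertical axis.

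Among the oxygen sensing genes, HIF1A mRNA lay between 11.43 in subclone 9 and 12.02 in subclone 1, with a median of 11.59. It did not pass with CA9 (r = 0.22, limma's adjusted p = 0.803; r = -0.36 without subclone 9). EGLN1, the main oxygen-sensing hydroxylase, ran from 5.22 in subclone 11 through a median of 6.82 to 7.56 in subclone 2. Its r was 0.31, and 0.50 without subclone 9, its Spearman rho was 0.78, and the low value in subclone 11 came from an array with a low upper quartile. EGLN1 is also a HIF target. Its limma adjusted p was 0.660, and the part of the array in that low value was not tested.

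The 3 secreted ligands were each highest in subclone 8 and lowest in different subclones. VEGFA, the main growth factor for blood vessels, ran from 8.64 in subclone 1 through a median of 9.99 to 10.29 in subclone 8, and was at 9.17 in subclone 9. VEGFA did not pass over 10 subclones (r = 0.63, limma's adjusted p = 0.182) but passed without subclone 9 (r = 0.89, adjusted p = 0.0348). ANGPTL4, an inhibitor of lipoprotein lipase, spanned 12.6-fold, from 4.29 in subclone 9 to 7.95 in subclone 8, with 5.03 in subclone 10 and 7.93 in subclone 11. It missed the threshold over 10 subclones (r = 0.75, adjusted p = 0.0605). ADM, the vasodilator peptide adrenomedullin, had a range of 2.06-fold and r = 0.55, and 0.75 without subclone 9 (limma's adjusted p = 0.0920).

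The mitophagy receptors BNIP3 and BNIP3L, which mark mitochondria for removal, had SDs of 0.36 and 0.33, near the median of 0.37 for all tested genes. BNIP3 ran from 10.69 in subclone 9 through a median of 11.51 to 11.92 in subclone 2, a range of 2.34-fold. Its r of 0.93 ranked 16 of 7094 genes (permutation p = 0.000370; Spearman rho = 0.93, permutation p = 0.000350; limma's adjusted p = 0.00306). Without subclone 9 its r was 0.85 (adjusted p = 0.0618), and without subclones 2 and 9, the 2 farthest from the median of CA9, it was 0.79. BNIP3L ran from 10.33 in subclone 9 to 11.41 in subclone 2 (r = 0.86, adjusted p = 0.0242). Without subclone 9 its r was 0.72 (limma's adjusted p = 0.144), and without subclones 2 and 9 it was 0.62 (permutation p = 0.107).

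The 4 genes that modify collagen were lowest in subclone 9 and highest in subclone 2, 5 or 8. P4HA1 and P4HA2, subunits of the enzyme that hydroxylates proline in collagen, ran from 9.08 to 11.10 and from 10.29 to 11.93. P4HA2 had r = 0.76 over 10 subclones (limma's adjusted p = 0.0558) and 0.89 without subclone 9 (adjusted p = 0.0293). P4HA1 fell just outside the threshold over 10 subclones (r = 0.77). PLOD2, a lysyl hydroxylase of collagen, spanned 10.45 to 11.98 and passed over 10 subclones (r = 0.83, adjusted p = 0.0225) but not without subclone 9 (adjusted p = 0.224). LOX, which cross-links collagen, had the median 10.60, with 9.89 in subclone 9 and 11.67 in subclone 8 (r = 0.73, adjusted p = 0.0808).

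The other hypoxia targets differed widely, with r from 0.22 to 0.80. NDRG1, a stress-induced protein, had a median of 11.09 and reached 12.07 in subclone 8 and 11.89 in subclone 11 (r = 0.80, limma's adjusted p = 0.0296; without subclone 9, r = 0.71, adjusted p = 0.109). INSIG2, which restrains sterol synthesis, was lowest in subclone 1 (6.60) and next in subclone 9 (6.79), and highest in subclone 2 (8.92). Its adjusted p was 0.0917 over 10 subclones and 0.0426 without subclone 9. MXI1, an antagonist of MYC, was lowest in subclone 10 (8.47) and highest in subclone 8 (10.26), with adjusted p-values of 0.201 and 0.0433. PDK1, which blocks entry of pyruvate into the mitochondrion, spanned 6.49 to 7.62 and had r = 0.69, and 0.35 without subclone 9. DDIT4, an inhibitor of mTORC1, was at 10.00 in subclone 9, -0.01 log2 units from the median of the others, and BHLHE40, a transcriptional repressor, was at 7.70 there. Their r values were 0.22 and 0.37 over 10 subclones and 0.61 for each without subclone 9, where limma's adjusted p was 0.194 and 0.216.

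All 3 transporters were lowest in subclone 9 and highest in subclone 2 or 8. SLC2A1, the widespread glucose transporter GLUT1, was at 4.71 in subclone 9, had a median of 6.16 and reached 7.01 in subclone 2. It was associated with CA9 over 10 subclones (r = 0.88, permutation p = 0.000110; Spearman rho = 0.94, permutation p = 0.000220; limma slope 0.46 ± 0.09 SE, adjusted p = 0.0133). Without subclone 9 its r was 0.89 but its slope was steeper, at 0.87 ± 0.18 SE (limma's adjusted p = 0.0457), and without subclones 2 and 9 its r was 0.85. SLC16A3, the lactate exporter MCT4, ran from 6.48 in subclone 9 to 8.05 in subclone 2 (r = 0.81, adjusted p = 0.0599). SLC2A3, the glucose transporter GLUT3, ran from 6.96 in subclone 9 to 8.59 in subclone 8 (r = 0.70, adjusted p = 0.132). Without subclone 9, SLC16A3 and SLC2A3 had r values of 0.82 and 0.71, and limma's adjusted p was 0.0857 and 0.138.

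The 4 HIF-responsive isoforms were then set against 11 glycolytic enzymes taken as constitutive (HK1, GPI, PFKP, PFKL, PFKM, ALDOA, TPI1, GAPDH, PGK1, ENO1 and LDHA). HK2 (SD 0.17), SLC2A3 (0.57) and SLC16A3 (0.52) were placed in neither group, and the contrast depends on this grouping. The isoforms' SDs over subclones lay between 0.52 and 0.98, with a median of 0.64, and the enzymes' between 0.05 and 0.45, with a median of 0.22. The median SD of all tested genes was 0.37. Without subclone 9 the medians were 0.53 and 0.23. Bright genes in general varied little in this table. ALDOA, TPI1, GAPDH and LDHA, with means of at least 12, had a median SD of 0.127, and the 79 tested genes that bright had one of 0.131. For the 5 enzymes with means from 10 to 12 it was 0.299, compared with 0.251 for 465 tested genes. The part of signal level in the contrast with the isoforms was not tested further.

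**Figure D3:**
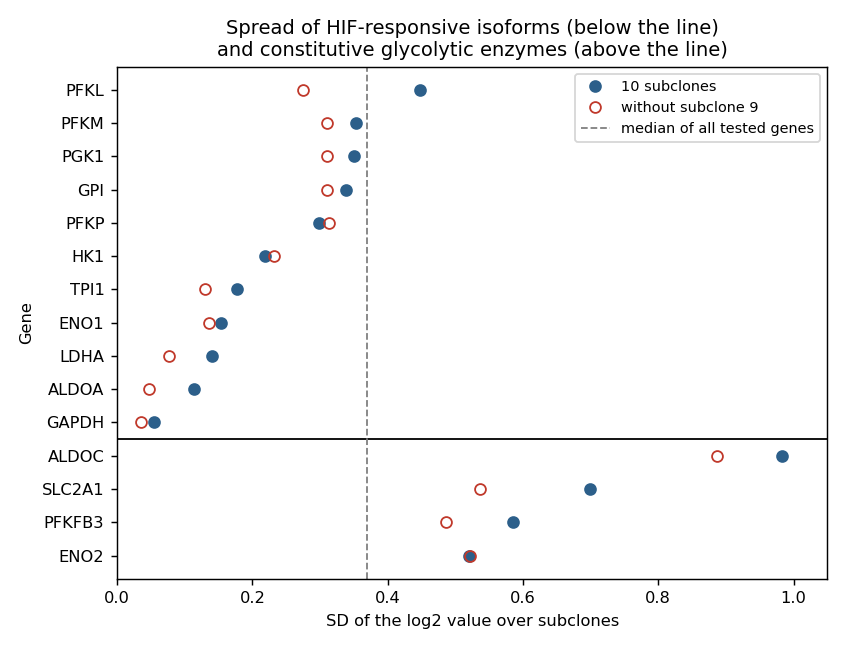
SD of the log2 value over 10 subclones (filled points) and without subclone 9 (open points) for the 4 HIF-responsive isoforms (below the line) and the 11 constitutive glycolytic enzymes (above it), with the median SD of all tested genes, 0.37, as a dashed line. Each isoform lies right of the dashed line, and every enzyme except PFKL lies left of it.

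ALDOC, the brain-type aldolase, was at 8.07 in subclone 10 and 8.08 in subclone 9, had a median of 9.77 and reached 10.67 in subclone 2, a range of 6.08-fold. ENO2, the neuronal enolase, ran from 9.71 in subclone 11 through a median of 10.37 to 11.16 in subclone 5. PFKFB3, which makes an activator of phosphofructokinase, had 7.28 in subclone 9, with the others from 7.58 to 8.93. With CA9, ALDOC had r = 0.69 (limma's adjusted p = 0.102), ENO2 r = 0.61 (adjusted p = 0.210) and PFKFB3 r = 0.78 (adjusted p = 0.0650), so SLC2A1 alone of the 4 passed. Without subclone 9 the r values were 0.63 for ALDOC, 0.83 for ENO2 and 0.68 for PFKFB3, and none but SLC2A1 passed. At limma's unadjusted p under 0.05, all 4 isoforms and 6 of the 11 enzymes were associated over 10 subclones (all tested genes, 17.6%). Without subclone 9 it was 4 isoforms and 1 enzyme, PFKP (all tested genes, 21.6%).

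Several constitutive enzymes set subclone 9 apart and little else. ALDOA, the widespread aldolase, was at 12.49 in subclone 9 and between 12.77 and 12.91 in the other 9. LDHA, which reduces pyruvate to lactate, had 12.66 in subclone 9, with the others from 12.95 to 13.16. Both sat apart in that subclone, and among the other 9 they spanned little. Their r values over 10 subclones were 0.77 and 0.73, but their Spearman rho values were -0.10 and 0.08, and without subclone 9 r was -0.52 and -0.28. GAPDH, the next enzyme after aldolase and triose isomerase, had r = 0.75 and then 0.04, and ENO1, the widespread enolase, 0.50 and then -0.01. These correlations therefore rest on subclone 9. By limma, none of the 4 passed (adjusted p from 0.123 to 0.483), and permutation p-values for r were 0.0927 for ALDOA, 0.0778 for LDHA, 0.0458 for GAPDH and 0.124 for ENO1.

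TPI1, triose phosphate isomerase, passed over 10 subclones (11.91 in subclone 9, 12.51 in subclone 5; r = 0.84, limma's adjusted p = 0.0442) but not without subclone 9 (r = 0.64, adjusted p = 0.239). PGK1, the first enzyme of the pathway to yield ATP, was lowest in subclone 9 (10.51) and highest in subclone 10 (11.41), with r = 0.61, and 0.33 without subclone 9. Of the phosphofructokinase isoforms, PFKL had 5.56 in subclone 9, with the others from 6.39 to 7.10 (r = 0.80, adjusted p = 0.0757; without subclone 9, r = 0.23). PFKM went the other way in that subclone, at 9.25, the highest of the 10 (r = -0.54, limma's adjusted p = 0.388; without subclone 9, r = -0.06). PFKP was lowest in subclone 1 (10.04) and reached 11.08 in subclone 8 (r = 0.39; without subclone 9, r = 0.67). The hexokinases HK1 (10.34 to 11.00) and HK2 (5.57 to 6.06), the first step of the pathway, had r values of 0.26 and 0.28 over 10 subclones, and 0.63 and 0.10 without subclone 9. HK2 is widely known as a HIF target, and here its range was 1.40-fold. GPI, the second step, was lowest in subclone 6 (9.94), with r = 0.60, and 0.41 without subclone 9.

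**Figure D4:**
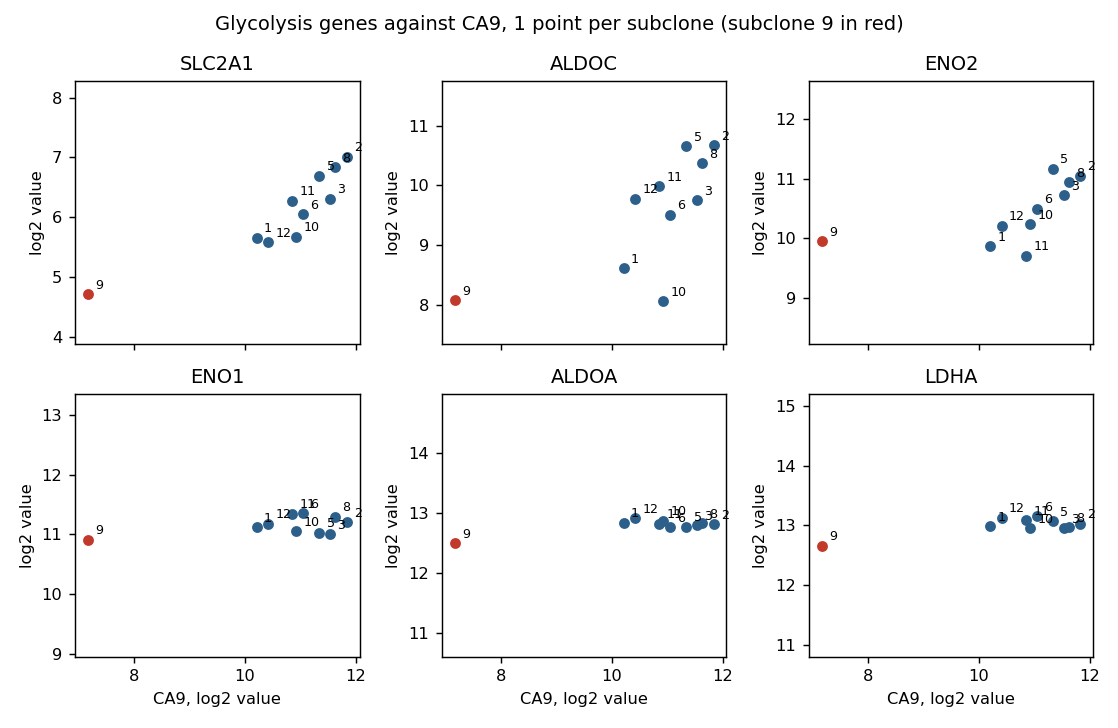
Log2 value of 6 glycolysis genes (vertical axes, each spanning the same number of log2 units) against the log2 value of CA9 (horizontal axis), 1 labelled point per subclone, with subclone 9 in red. SLC2A1, ALDOC and ENO2 slope upward among the 9 blue points, while ENO1, ALDOA and LDHA are nearly flat there and lower in subclone 9.

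Whether isoforms of the same step differed in their relation to CA9 was tested on the log2 difference of 6 pairs, by a 2-sided permutation test over 10 subclones with p-values adjusted over the 6 pairs. The ALDOC minus ALDOA difference had r = 0.62 with CA9 (slope 0.44 ± 0.20 SE, permutation p = 0.0313, adjusted 0.0679). It was lowest in subclone 10, at -1.56 from its mean, and highest in subclone 5, at 1.12. SLC2A1 minus SLC2A3 had r = 0.63 (permutation p = 0.0340, adjusted 0.0679), and 0.34 without subclone 9. ENO2 minus ENO1 had r = 0.44 over 10 subclones (permutation p = 0.217) and 0.76 without subclone 9 (permutation p = 0.0189, adjusted 0.113). HK2 minus HK1 had r = -0.03 (permutation p = 0.910), and -0.41 without subclone 9. The other 2 pairs, PFKFB3 minus PFKFB4 (r = 0.64) and EGLN3 minus EGLN1 (r = -0.31), each hold a gene below the table's median on all arrays. They are therefore no comparison of isoforms and are given as values. At these low signals PFKFB4 alone had r = 0.74 with CA9 (permutation p = 0.00569), and 0.57 without subclone 9. EGLN3 alone had r = -0.08 (permutation p = 0.845). None of the 4 pairs of tested genes passed, whether adjusted over 6 pairs or over these 4, so a difference between isoforms in their relation to CA9 was not shown. Leaving out subclone 10 brought ALDOC minus ALDOA to r = 0.81 (permutation p adjusted to 0.00564), and leaving out subclone 1 brought SLC2A1 minus SLC2A3 to 0.72 (adjusted 0.0196).

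Subclone 9 was lower than the median of the other 9 for 36 of 37 members, all but PFKM, compared with 41.1% of all tested genes. At least 1 log2 unit separated them for 11 members, compared with 3.82% of all tested genes, and 0 members lay as far above (all tested genes, 6.98%). The differences were -3.88 for CA9, -2.58 for ANGPTL4, -1.87 for NDRG1, -1.70 for ALDOC, -1.57 for SLC2A1, -1.56 for P4HA1 and -1.30 for PFKFB3. SLC16A3, INSIG2, PFKL and PLOD2 followed, between -1.05 and -1.19. With 1 array there is no test of this subclone, and its array had the highest median of the 10.

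Among all tested genes, likeness to CA9 was measured by Pearson r over 10 subclones. The 10 outside the module with the highest r over 10 subclones were AK3L1, GJA1, TMEM45A, C11orf24, PLOD1, SCG5, FAM38A, MATN2, FAM70A and RAB1B, with r from 0.95 to 0.98. AK3L1, a mitochondrial adenylate kinase, ranked 1 and had r = 0.95 without subclone 9 (limma's adjusted p = 0.0187). GJA1, a gap junction protein, and PLOD1, another lysyl hydroxylase, had r = 0.98 over 10 subclones and 0.93 and 0.89 without subclone 9. RAB1B, a regulator of vesicle traffic, had 0.95 and 0.73. At the other end stood ME2, a mitochondrial malic enzyme, NFKBIB, an inhibitor of NF-kB, the elastase MMP12, the clock repressor CRY1 and the aldose reductase AKR1B1, with r from -0.97 to -0.96. ME2 had 8.12 in subclone 9, with the others from 5.89 to 6.57.

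A list of further HIF targets had 31 tested genes. By limma, 8 were positively associated with CA9 over 10 subclones (all tested genes, 1.45%) and 0 negatively. Without subclone 9 it was 6 positively (all tested genes, 1.24%) and 0 negatively. The 8 were AK3L1, TMEM45A, TGFBI, ZNF395, SPAG4, IGFBP3, FAM162A and GYS1. The 6 were AK3L1, TMEM45A, TGFBI and FAM162A, with CCNG2 and C7orf68, which passed only without subclone 9. GYS1, which makes glycogen, ran from 7.19 in subclone 9 to 9.51 in subclone 5. The list's median r was 0.59 over 10 subclones and 0.66 without subclone 9. Of 17 other genes of glycolysis and pyruvate use, 2 passed positively over 10 subclones (all tested genes, 1.45%). Without subclone 9 it was 0 (all tested genes, 1.24%). PDK3, a kinase that inhibits pyruvate dehydrogenase, had 4.21 in subclone 9, with the others from 5.19 to 6.71, and PGM1, which links glycogen to glycolysis, had 9.26, with the others from 9.89 to 10.46. The list's median r was 0.00, with genes in both directions. At limma's unadjusted p under 0.05 it had 4 positive and 3 negative genes over 10 subclones (all tested genes, 6.51% and 11.1%). Without subclone 9 it had 2 and 2 (all tested genes, 13.8% and 7.81%).

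Regulators of HIF, the pentose phosphate pathway and the citric acid cycle had 0 genes associated by limma of 12, 7 and 13 tested. At an unadjusted p under 0.05 they had 0 positive genes over 10 subclones and 1, 1 and 5 negative ones (all tested genes, 6.51% positive and 11.1% negative). Without subclone 9 the positive genes numbered 2, 0 and 0 (all tested genes, 13.8%) and the negative 1, 2 and 5 (all tested genes, 7.81%). HIF regulators had a median r of 0.01. ARNT2, a partner of HIF1A, had r = -0.80 over 10 subclones and 0.00 without subclone 9. TCEB1 and CUL2, parts of the ligase that marks HIF1A for destruction, had r = -0.47 and -0.46, and -0.10 and 0.19 without subclone 9. These 3 had the largest absolute r over 10 subclones, and other regulators led without subclone 9. The 2 positive ones there were SIAH2 (r = 0.76, and 0.28 over 10 subclones) and SIAH1 (0.68, and 0.34). The negative one was TCEB2 (r = -0.83, and -0.00027 over 10 subclones). In the pentose phosphate pathway TALDO1, transaldolase, had r = -0.85, and -0.80 without subclone 9, and RPE and PGD each had -0.41, and then -0.27 and 0.03. Citric acid cycle genes had a median r of -0.55 over 10 subclones and -0.61 without subclone 9, and the 3 with the largest absolute r over 10 subclones were IDH3A (-0.82), FH (-0.78) and SUCLG1 (-0.69). Without subclone 9 these were -0.16, -0.70 and -0.87.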

How the data were processed

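The 10 arrays hold total RNA of 10 U87MG subclones, 1 each. The authors deposited log2 values per gene symbol, made with RMA per the submitters' processing notes; the log2 unit follows from RMA and from the range of the values. How probe sets were joined into symbols is not stated there. The members, gene lists and pairs were chosen with earlier results of these data known. Tested genes had a highest value at or above the table's median, 5.00. Each was regressed on CA9 with limma 3.58.1 in R 4.3.3 (lmFit, eBayes with an intensity trend), adjusted by Benjamini-Hochberg over all tested genes at 0.05; the step was tested on simulated data. Single correlations used 100000 2-sided permutations over subclones in numpy 2.4.6. No p was computed over the list. Genes outside the module were named if they had the 10 highest or 5 lowest r with CA9, or were past the CA9 fit in a listed pathway, or otherwise up to 3 of that list with the largest absolute r. Promoter sequences are RefSeq's. Alternatives changed the filter, the scaling, the predictor, the variance model and the subclones entered. P-values measure the spread between these arrays, whose number limits the precision.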

Additional observations from a re-analysis of the deposited data

Results flagged for a closer look

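Of 37 tested members 6 (16.2%) had a sample far from the others, against 12.5% of all tested genes; chance flags about 1 in 20 groups. The measure is the gap between an extreme subclone and its nearest neighbour as a share of the whole range. For 5 members (13.5%; all tested genes, 1.06%) the extreme was a low value in subclone 9. These gaps were 0.652 of the range for CA9, 0.511 for BNIP3, 0.540 for PFKL, 0.649 for ALDOA and 0.583 for LDHA. PFKP had a gap of 0.595 below the rest in subclone 1.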

How the results depend on the processing

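The count of members associated with CA9, 7 of 36 as reported, was 17 with each array's median as a covariate, 14 without subclones 10 and 11, 11 with the rank of CA9, 3 without the intensity trend and 1 with NDRG1 as the predictor. Leaving out each subclone in turn gave 2 (without subclone 2) to 12 (without subclone 10), with 3 without subclone 8. The genes associated with CA9, 261 as reported with 103 positive, were 609 (322 positive) with the covariate, 457 without subclones 10 and 11, 144 (107 positive) with the rank and 30 (19 positive) with NDRG1, and 109 (88 positive) without subclone 9 to 322 without subclone 10; 123 passed without subclone 2 and 168 without subclone 8. SLC2A1 passed in each of these settings that kept CA9 or its rank as the predictor. The other 6 called members did not pass in at least 1 setting. The cause was not tested.

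Leaving out 1 subclone moved r of the paralog differences with CA9 between 0.577 and 0.810 for ALDOC minus ALDOA, 0.369 and 0.762 for ENO2 minus ENO1, -0.411 and 0.0996 for HK2 minus HK1, 0.341 and 0.721 for SLC2A1 minus SLC2A3, 0.544 and 0.733 for PFKFB3 minus PFKFB4, and -0.544 and -0.201 for EGLN3 minus EGLN1. The adjustment over the 4 pairs of which both genes passed the filter was chosen after seeing the data and changed no call. With NDRG1 as the predictor HK2 minus HK1 turned to 0.284 and EGLN3 minus EGLN1 to 0.0393. The median SD of the HIF-responsive isoforms was 0.725 by the median absolute deviation and 0.529 to 0.679 with 1 subclone left out, and that of the other glycolytic enzymes 0.299 without PGK1, LDHA, ENO1 and ALDOA and 0.180 to 0.232 with 1 left out. Turned directions among single genes were r of HIF1A with the rank of CA9 (-0.0378) and, with array medians subtracted, Spearman rho of GAPDH (-0.0424) and LDHA (-0.188). With 1 subclone left out, r turned for ALDOA (-0.521 to 0.866), ENO1 (-0.0116 to 0.629), HIF1A (-0.360 to 0.513) and LDHA (-0.279 to 0.801). Spearman rho turned or reached 0 for ALDOA (-0.517 to 0.05), LDHA (-0.267 to 0.2), GAPDH (0 to 0.467), ENO1 (-0.0167 to 0.4) and HIF1A (-0.0333 to 0.567). No paired analysis was possible because the subclones form 1 group. Bright genes varied little in this table, and 1 array per subclone leaves the error of a single value unknown, which limits what small differences can show.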

Other observations

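Without subclone 9 other genes led the ranking by r with CA9. They were chosen after their values were seen and are given as values. UGT8, an enzyme of galactolipid synthesis, ranked 1 with r = 0.98 over 9 subclones, from 3.78 in subclone 1 to 6.56 in subclone 2, and had r = 0.66 over 10. CAPN7, a calpain protease, had r = 0.96 over 9 subclones and -0.15 over 10, with its highest value, 6.55, in subclone 9. STK25, a kinase, had 0.95 and 0.16, and POLI, a DNA polymerase of damage bypass, 0.94 and 0.10. Among HIF targets, CCNG2, an atypical cyclin, had r = 0.91 over 9 subclones (limma's adjusted p = 0.0272) and 0.59 over 10, with 3.97 in subclone 9. A total of 15 genes were associated with CA9 by limma in both fits, 14 of them positively.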
